A study of Mus musculus with 14 samples.

Results

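A set of 10 genes of liver X receptor signalling and lipid handling was followed in mouse bone marrow monocytes that had been exposed ex vivo to interleukin-4 (IL-4), a type 2 cytokine that signals through STAT6. The genes were taken by symbol: the receptors Nr1h2 and Nr1h3, the efflux genes Abca1, Abcg1 and Apoe, the ubiquitin ligase gene Mylip, and the uptake and storage genes Cd36, Msr1, Lpl and Plin2. All 10 were found among the 55487 gene rows of the count table, and all 10 were among the 14754 genes that passed the filter on low counts. The groups were AhR-deficient monocytes with 20 ng/mL of mouse IL-4 (n = 3), wild-type monocytes with IL-4 (n = 4), AhR-deficient monocytes in medium (n = 3) and wild-type monocytes in medium (n = 4), each after 3 h. AhR is the aryl hydrocarbon receptor, a ligand-activated transcription factor, and the labels do not give the allele, the strain, the age or the cells in which the gene was deleted. The study asked how monocytes of either genotype respond to IL-4 at this early time.

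Liver X receptors (LXRs) are nuclear receptors that sense oxysterols, which accumulate when a cell holds excess cholesterol. They bind DNA as heterodimers with retinoid X receptors at paired hexamers separated by a short gap and switch on genes that export cholesterol and limit its uptake. In macrophages the best known targets are Abca1 and Abcg1, which move cholesterol to lipid-poor apolipoprotein A-I and to mature high-density lipoprotein particles, Apoe, which carries the lipid away, and Mylip, which marks the low-density lipoprotein (LDL) receptor for degradation. Cd36 and Msr1 are scavenger receptors for modified lipoproteins, Lpl hydrolyses the triglyceride of lipoproteins, and Plin2 coats the cytosolic lipid droplet.

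The promoter windows below belong to genes that IL-4 moved in opposite directions: Abca1 and Mylip, which fell in both genotypes, and Cd36 and Plin2, which rose in both. They come from the RefSeq promoter table (build GRCm38.p6, 250 bases before to 50 bases after a gene's start), which matched 7 of the 10 genes with 10 windows; Abcg1, Lpl and Msr1 had no entry. The windows of Abca1, Mylip and Plin2 lie at the start of the annotated gene given with each gene below, whereas that of Cd36 lies inside its annotated gene, at an internal start, and not at the gene's outermost start. The windows lie at chr4:53159846-53160145 (Abca1, minus strand), chr13:45389492-45389791 (Mylip, plus strand), chr5:17835847-17836146 (Cd36, minus strand) and chr4:86670010-86670309 (Plin2, minus strand). Each is printed 5′ to 3′ along its gene, and no bases are singled out, since no binding data bear on them here.
Abca1: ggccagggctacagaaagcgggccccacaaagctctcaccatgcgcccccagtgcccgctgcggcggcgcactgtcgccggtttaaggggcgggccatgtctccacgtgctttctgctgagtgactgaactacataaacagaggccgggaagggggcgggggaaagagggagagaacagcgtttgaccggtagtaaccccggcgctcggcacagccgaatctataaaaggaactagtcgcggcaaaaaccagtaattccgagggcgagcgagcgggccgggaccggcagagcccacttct
Mylip: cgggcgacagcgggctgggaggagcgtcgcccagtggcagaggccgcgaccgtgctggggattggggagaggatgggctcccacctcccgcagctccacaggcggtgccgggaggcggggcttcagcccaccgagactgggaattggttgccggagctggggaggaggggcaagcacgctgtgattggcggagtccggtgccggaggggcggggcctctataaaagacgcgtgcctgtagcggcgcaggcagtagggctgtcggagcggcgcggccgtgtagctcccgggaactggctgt
Cd36: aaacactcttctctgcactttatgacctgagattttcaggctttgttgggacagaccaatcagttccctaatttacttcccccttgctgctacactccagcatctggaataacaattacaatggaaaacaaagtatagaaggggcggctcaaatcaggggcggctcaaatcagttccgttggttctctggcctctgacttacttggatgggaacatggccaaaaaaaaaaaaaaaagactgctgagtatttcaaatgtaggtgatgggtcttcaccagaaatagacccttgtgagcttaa
Plin2: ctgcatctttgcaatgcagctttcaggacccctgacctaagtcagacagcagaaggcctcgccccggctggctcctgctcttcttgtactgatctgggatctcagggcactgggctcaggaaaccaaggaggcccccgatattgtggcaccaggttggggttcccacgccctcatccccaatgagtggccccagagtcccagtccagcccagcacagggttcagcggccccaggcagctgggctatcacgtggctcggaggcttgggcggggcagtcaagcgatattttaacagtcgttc
The share of G and C in these windows was 62.7% for Abca1, 71.0% for Mylip, 43.0% for Cd36 and 60.7% for Plin2.

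Depth did not differ widely between libraries: the 14 column totals ran from 33432502 to 42885079 counts. Levels are given as CPM, which sets each count against its library's TMM-scaled total, and as CPM per kb of exon where genes are compared with each other. Monocyte markers (12 of 12 detected) summed to 20810 to 29750 CPM per library, while B cell markers summed to at most 4.03 CPM and T or NK cell markers to at most 5.59 CPM. Neutrophil markers summed to 1034 to 1257 CPM in the 4 wild-type libraries of numbers 1 and 2. In the other 10 libraries they summed to 403 to 948 CPM. The highest of these was wild-type number 7 with IL-4 (948 CPM, against 510 CPM in medium), so the gap is narrow. Results with wild-type libraries were also computed without numbers 1 and 2, a choice made after seeing the data. It leaves 2 wild-type libraries per treatment. Eosinophil markers summed to 203 to 252 CPM in the 4 libraries of numbers 1 and 2, against 66.1 to 140 CPM in the other 10. Ahr itself was higher in the AhR-deficient libraries, at 41.9 ± 4.4 CPM with IL-4 and 20.9 ± 5.2 CPM in medium (SD, n = 3 each), than in the wild-type libraries, at 25.5 ± 1.4 and 13.02 ± 1.6 CPM (SD, n = 4 each). Gene-level counts cannot show a deleted exon, so this neither checks the genotype nor goes against it. Xist ran from 987 to 1284 CPM in the 6 AhR-deficient libraries and from 0.0242 to 2.12 CPM in the 8 wild-type libraries, and the Y-linked Ddx3y had 0 CPM in the AhR-deficient libraries, against 114 to 143 CPM in the wild-type libraries. Genotype and sex therefore cannot be told apart in any genotype comparison below. In bulk RNA, fewer cells of a type and less RNA per cell cannot be told apart either.

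IL-4 lowered and raised genes of this set in both genotypes. In AhR-deficient monocytes 3 of the 10 genes rose (Abcg1, Cd36 and Plin2), 5 fell (Nr1h3, Abca1, Apoe, Mylip and Msr1) and 2 did not pass the test (Nr1h2 and Lpl), against 29.5% of all genes that passed (15.4% rose and 14.2% fell). In wild-type monocytes 4 rose (the same 3 and Lpl), the same 5 fell and 1 did not pass (Nr1h2), against 35.9% of all genes (19.4% rose and 16.5% fell). The 10 genes were chosen with earlier results of these data known, so their counts, here and below, are a description. The test was edgeR's quasi-likelihood F-test with Benjamini-Hochberg adjustment over all 14754 genes, and a gene passed at an adjusted p under 0.05. The median log2 fold change of the 10 genes was -0.53 in AhR-deficient and -0.41 in wild-type monocytes, beside -0.01 and 0.01 over all genes tested. It falls in the gap between Mylip (-0.95 and -0.82) and Nr1h2 (-0.10 and 0.01), so it does not describe a shift of the whole set. Library ranges with and without IL-4 did not overlap for 9 of the 10 genes in AhR-deficient cells (43.7% of all genes) and for 8 of the 10 in wild-type cells (33.2% of all genes). Across the 7 same-numbered pairs of libraries the direction was the same for 9 of the 10 genes. Nr1h2 was higher in 3 pairs and lower in 4. The share of all genes with 1 direction in all 7 pairs was not computed, so this count describes the 10 genes only. Without numbers 1 and 2, 8 of the 10 genes passed in wild-type cells, with Lpl lost.

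**Figure D1:**
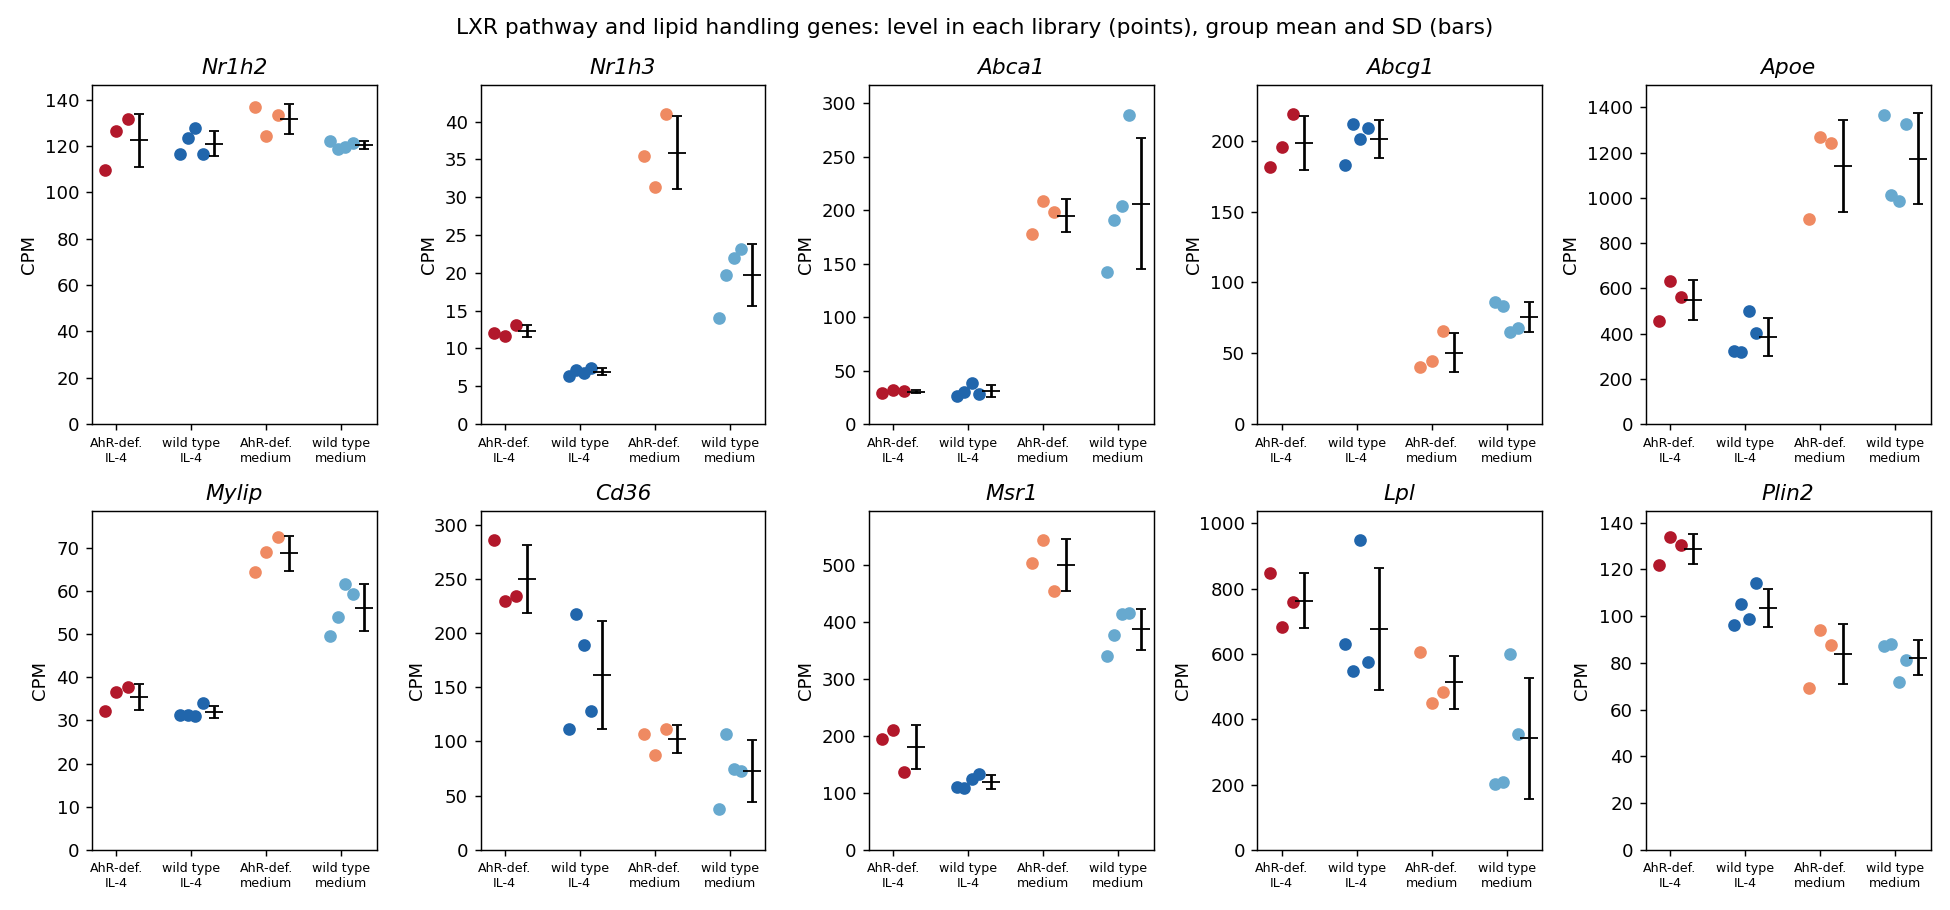
Level of each of the 10 genes in CPM (vertical axis, from 0), with 1 point per library in the 4 groups and bars for the group mean ± SD (n = 3 AhR-deficient and 4 wild type per treatment). Abca1 lies between 26.4 and 38.6 CPM in the 7 IL-4 libraries and between 142 and 289 CPM in the 7 medium libraries, while Abcg1 is the other way round.

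Of the 2 receptors, Nr1h3 fell with IL-4 in both genotypes and Nr1h2 did not pass the test in either. Nr1h2 encodes LXR-beta, which is expressed in nearly every tissue (ENSMUSG00000060601.13, GRCm38 chromosome 7, 44549616 to 44553951, minus strand). It had 110, 127 and 132 CPM in AhR-deficient monocytes with IL-4, against 137, 125 and 134 CPM in medium, and 117, 123, 128 and 117 CPM in wild-type monocytes with IL-4, against 122, 119, 120 and 121 CPM in medium. All 14 libraries lie in one narrow band and the 4 groups overlap, apart from AhR-deficient and wild-type cells in medium. The log2 fold change with IL-4 was -0.10 ± 0.06 in AhR-deficient cells (SE, adjusted p = 0.274) and 0.01 ± 0.06 in wild-type cells (adjusted p = 0.944). Their 95% intervals ran from -0.24 to 0.04 and from -0.11 to 0.13. A processed copy of this gene, Nr1h2-ps, is annotated elsewhere in the genome, and how the authors' counting treated reads that fit both is not given in the sources used here.

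Nr1h3 encodes LXR-alpha, the form enriched in liver, fat and macrophages and itself an LXR target in human macrophages (ENSMUSG00000002108.10, chromosome 2, 91184061 to 91202834, minus strand). It had 12.1, 11.6 and 13.1 CPM in AhR-deficient monocytes with IL-4, against 35.5, 31.3 and 41.0 CPM in medium. In wild-type monocytes it had 6.34, 7.15, 6.75 and 7.36 CPM with IL-4, against 13.98, 19.7, 22.0 and 23.2 CPM in medium. The 4 groups did not overlap, and the order from high to low was AhR-deficient medium, wild-type medium, AhR-deficient IL-4 and wild-type IL-4. It fell to 0.342 of the medium level in AhR-deficient cells (log2 fold change -1.55 ± 0.15, adjusted p = 3.37e-06) and to 0.350 of it in wild-type cells (-1.51 ± 0.14, adjusted p = 9.55e-07). Nr1h3 shares an exon with Gm13783 on the same strand, which was assigned 77 counts over all 14 libraries, so the split of reads between them is uncertain.

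Per kb of exon, Nr1h3 was the minor receptor throughout. The ratio of Nr1h3 to Nr1h2 was 0.134 ± 0.012 in AhR-deficient cells with IL-4 (SD, n = 3), against 0.363 ± 0.040 in medium (n = 3). In wild-type cells it was 0.0761 ± 0.0061 with IL-4 (n = 4), against 0.218 ± 0.046 in medium (n = 4). Exon length here is the union over all annotated isoforms, so a level per kb is approximate and its changes between groups are those of the counts.

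The 2 sterol transporters moved in opposite directions. Abca1 (ENSMUSG00000015243.4, chromosome 4, 53030787 to 53159895, minus strand) had 29.1, 31.4 and 30.5 CPM in AhR-deficient monocytes with IL-4, against 178, 209 and 198 CPM in medium. In wild-type monocytes it had 26.4, 30.3, 38.6 and 28.5 CPM with IL-4, against 142, 191, 204 and 289 CPM in medium. Every IL-4 library lay below every medium library, and the genotypes overlapped within each treatment. Abca1 fell to 0.156 of the medium level in AhR-deficient cells (log2 fold change -2.68 ± 0.21, adjusted p = 3.07e-07) and to 0.150 of it in wild-type cells (-2.74 ± 0.18, adjusted p = 3.71e-08). Of the 14754 genes, Abca1 ranked 214 and 219 by p in these comparisons.

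Abcg1 (ENSMUSG00000024030.7, chromosome 17, 31057675 to 31117988, plus strand) had 182, 195 and 219 CPM in AhR-deficient monocytes with IL-4, against 40.0, 44.8 and 65.8 CPM in medium. In wild-type monocytes it had 183, 212, 201 and 209 CPM with IL-4, against 86.1, 83.04, 65.3 and 67.5 CPM in medium. All IL-4 libraries lay above all medium libraries, and with IL-4 both genotypes reached the same range. It rose 3.96-fold in AhR-deficient cells (log2 fold change 1.99 ± 0.16, adjusted p = 5.21e-07) and 2.67-fold in wild-type cells (1.42 ± 0.14, adjusted p = 1.99e-06). The ratio of Abcg1 to Abca1 per kb was 9.29 ± 0.77 in AhR-deficient cells with IL-4 (SD, n = 3), against 0.365 ± 0.093 in medium (n = 3), and 9.40 ± 1.36 in wild-type cells with IL-4 (n = 4), against 0.567 ± 0.229 in medium (n = 4). Abca1 was thus the more abundant transporter RNA per kb in all 7 medium libraries and Abcg1 in all 7 IL-4 libraries.

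**Figure D2:**
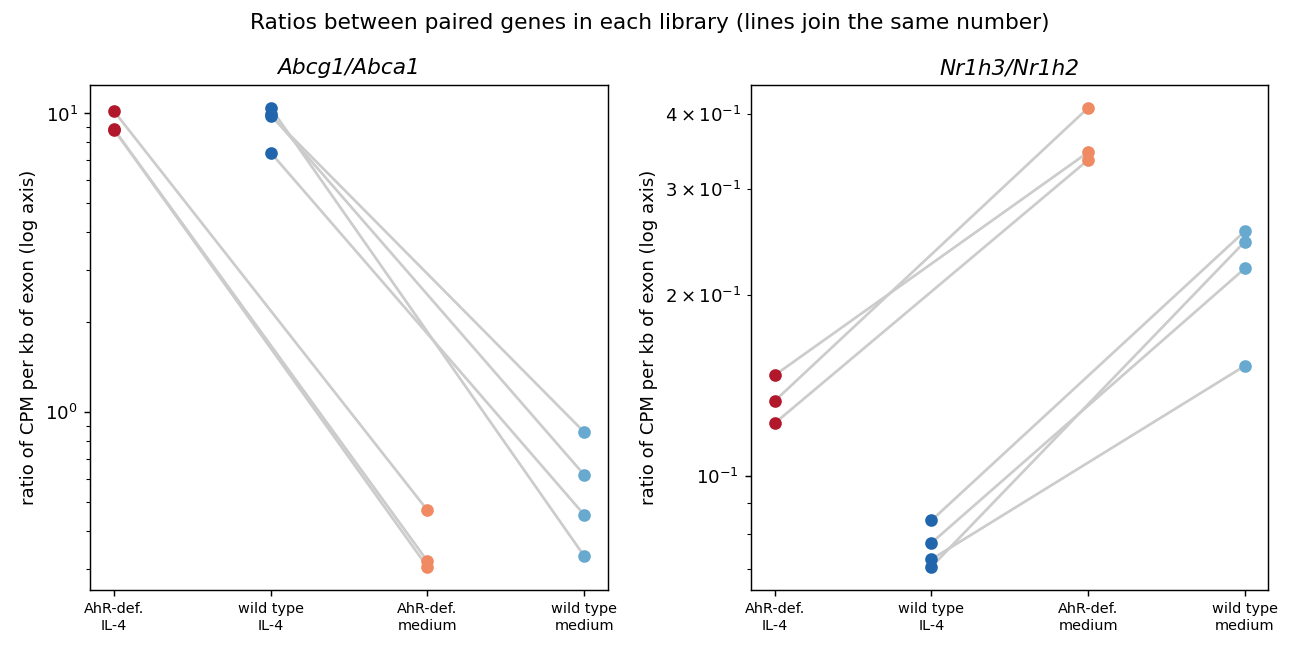
Ratio of CPM per kb of exon for Abcg1 over Abca1 (left) and Nr1h3 over Nr1h2 (right), on log axes, with 1 point per library in the 4 groups and lines joining same-numbered libraries. The transporter ratio is 7.40 to 10.4 in the 7 IL-4 libraries and 0.305 to 0.860 in the 7 medium libraries, and the receptor ratio is lower with IL-4 in all 7 pairs.

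Apoe encodes apolipoprotein E, the lipoprotein component that macrophages secrete (ENSMUSG00000002985.16, chromosome 7, 19696109 to 19699188, minus strand). It had 455, 631 and 563 CPM in AhR-deficient monocytes with IL-4, against 905, 1269 and 1243 CPM in medium. In wild-type monocytes it had 323, 316, 498 and 402 CPM with IL-4, against 1366, 1011, 985 and 1325 CPM in medium. It was lower with IL-4 in every library of either genotype. Apoe fell to 0.482 of the medium level in AhR-deficient cells (log2 fold change -1.05 ± 0.19, adjusted p = 8.94e-04) and to 0.329 of it in wild-type cells (-1.61 ± 0.17, adjusted p = 4.91e-06).

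Mylip encodes IDOL, the ligase that sends the LDL receptor to the lysosome (ENSMUSG00000038175.10, chromosome 13, 45389742 to 45412022, plus strand). It had 32.1, 36.5 and 37.8 CPM in AhR-deficient monocytes with IL-4, against 64.5, 69.1 and 72.6 CPM in medium. In wild-type monocytes it had 31.4, 31.3, 30.9 and 34.0 CPM with IL-4, against 49.7, 54.1, 61.6 and 59.4 CPM in medium. The IL-4 libraries of both genotypes overlapped with each other and not with any medium library. Mylip fell to 0.516 of the medium level in AhR-deficient cells (log2 fold change -0.95 ± 0.08, adjusted p = 1.17e-06) and to 0.568 of it in wild-type cells (-0.82 ± 0.07, adjusted p = 8.75e-07).

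The 2 scavenger receptors were opposite to each other. Cd36 takes up oxidised LDL and long-chain fatty acids and is a known PPAR-gamma target (ENSMUSG00000002944.15, chromosome 5, 17781690 to 17888801, minus strand). It had 286, 230 and 234 CPM in AhR-deficient monocytes with IL-4, against 107, 87.9 and 112 CPM in medium, and 112, 218, 189 and 128 CPM in wild-type monocytes with IL-4, against 37.2, 106, 74.9 and 72.7 CPM in medium. Wild-type libraries varied widely among themselves, yet each number was higher with IL-4 than in medium. Cd36 rose 2.45-fold in AhR-deficient cells (log2 fold change 1.29 ± 0.30, adjusted p = 5.04e-03) and 2.22-fold in wild-type cells (1.15 ± 0.26, adjusted p = 3.44e-03).

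Msr1 encodes the class A scavenger receptor (ENSMUSG00000025044.16, chromosome 8, 39581685 to 39642673, minus strand). It had 195, 210 and 137 CPM in AhR-deficient monocytes with IL-4, against 503, 544 and 454 CPM in medium, and 110, 108, 125 and 134 CPM in wild-type monocytes with IL-4, against 340, 378, 414 and 416 CPM in medium. The 4 groups did not overlap, and within each treatment the AhR-deficient libraries were the higher. It fell to 0.361 of the medium level in AhR-deficient cells (log2 fold change -1.47 ± 0.14, adjusted p = 2.50e-06) and to 0.308 of it in wild-type cells (-1.70 ± 0.12, adjusted p = 9.86e-08).

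Lpl encodes lipoprotein lipase, which macrophages secrete (ENSMUSG00000015568.16, chromosome 8, 68880491 to 68907448, plus strand). It had 850, 682 and 759 CPM in AhR-deficient monocytes with IL-4, against 606, 451 and 484 CPM in medium, and these groups did not overlap. In wild-type monocytes it had 632, 547, 950 and 576 CPM with IL-4, against 202, 209, 598 and 356 CPM in medium, and these overlapped, with number 3 the highest under both treatments. The log2 fold change was 0.57 ± 0.34 in AhR-deficient cells, which did not pass (adjusted p = 0.238). With the library number as a block, which compares same-numbered libraries, it was 0.58 ± 0.16 and passed (adjusted p = 0.0163). Lpl rose 1.98-fold in wild-type cells (log2 fold change 0.99 ± 0.29, adjusted p = 0.0172). That call was lost without wild-type IL-4 number 3 (0.78, adjusted p = 0.0602), without wild-type medium number 2 (0.81, adjusted p = 0.0516), without numbers 1 and 2 (0.67, adjusted p = 0.104), and with only the groups compared in the fit (adjusted p = 0.0504).

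Plin2 encodes perilipin 2, the droplet coat protein of most non-adipose cells (ENSMUSG00000028494.12, chromosome 4, 86648386 to 86670060, minus strand). It had 122, 134 and 131 CPM in AhR-deficient monocytes with IL-4, against 69.3, 94.1 and 87.7 CPM in medium, and 96.2, 105, 98.6 and 114 CPM in wild-type monocytes with IL-4, against 87.3, 88.1, 71.9 and 81.2 CPM in medium. The IL-4 libraries lay above the medium libraries in both genotypes, by a narrow margin in wild type. It rose 1.54-fold in AhR-deficient cells (log2 fold change 0.62 ± 0.11, adjusted p = 4.58e-04) and 1.26-fold in wild-type cells (0.33 ± 0.09, adjusted p = 0.0108).

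**Figure D3:**
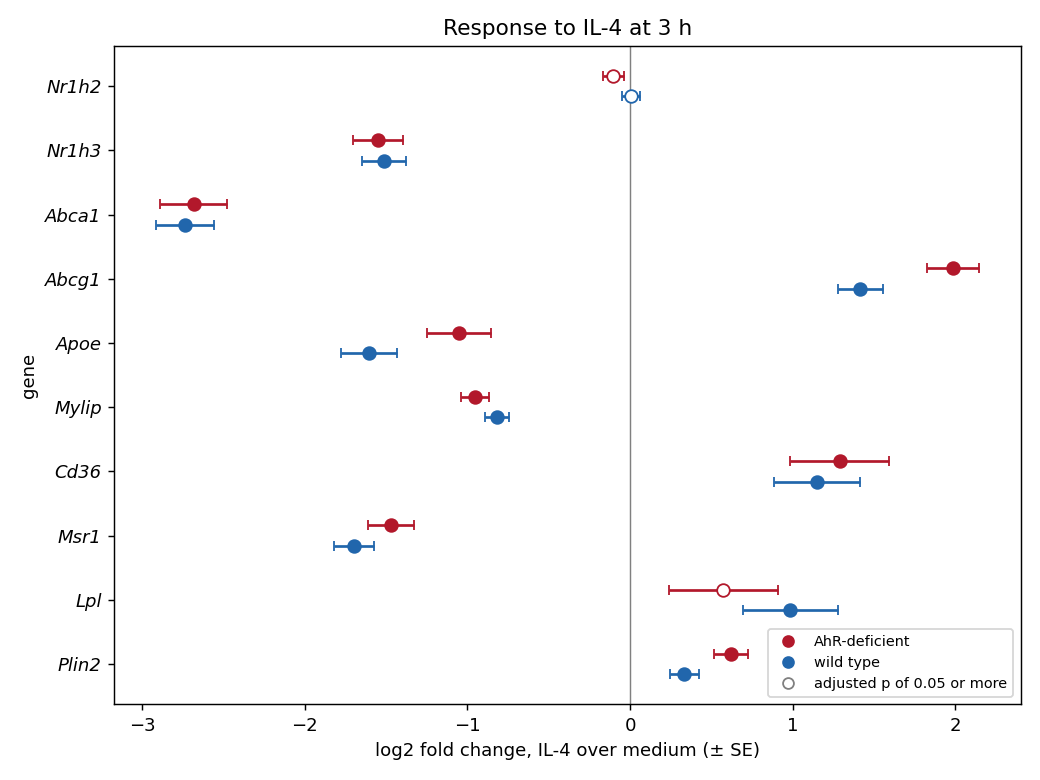
Log2 fold change with IL-4 over medium ± SE for the 10 genes in AhR-deficient (red) and wild-type (blue) monocytes; open points did not pass (adjusted p of 0.05 or more). Filled points run from -2.74 for Abca1 to 1.99 for Abcg1, and Nr1h2 is open in both genotypes, at -0.10 and 0.01.

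Some markers of other cell types changed with IL-4 as well. Over all genes tested, 15.4% rose and 14.2% fell in AhR-deficient cells, and 19.4% rose and 16.5% fell in wild-type cells. The marker counts in this paragraph and the next are to be read beside these shares. Of 12 markers of resident macrophages, 9 were abundant enough to be tested; 4 rose (Adgre1, Mertk, C1qb and Axl), 0 fell and 5 did not pass in each genotype. The sum of the list was 547 to 672 CPM in AhR-deficient cells with IL-4, against 316 to 427 CPM in medium, and 664 to 725 CPM in wild-type cells with IL-4, against 391 to 570 CPM in medium. Most of that sum was Adgre1, which encodes F4/80 (445 ± 30 CPM in AhR-deficient cells with IL-4, against 280 ± 26 CPM in medium, SD, n = 3 each). The resident macrophage genes Vsig4, Marco and Timd4 had group means of at most 0.443 CPM. Among those that did not pass, Vcam1 had log2 fold changes of -0.76 ± 0.29 in AhR-deficient cells (adjusted p = 0.0690) and -0.50 ± 0.25 in wild-type cells (adjusted p = 0.144), and it fell in both with the library number as a block (adjusted p = 0.0104 and 0.0227). C1qc had 1.24 ± 0.45 in AhR-deficient and 0.88 ± 0.38 in wild-type cells (adjusted p = 0.052 and 0.088). It rose in both with the block (adjusted p = 7.54e-03 and 0.0147). Siglec1 had 0.52 ± 0.40 in AhR-deficient and 0.30 ± 0.37 in wild-type cells. It rose with the block in AhR-deficient cells only (adjusted p = 0.0250, against 0.196 in wild-type cells). Cd5l had -0.75 ± 0.60 in AhR-deficient and -0.44 ± 0.55 in wild-type cells (adjusted p = 0.397 and 0.581).

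Of 11 tested dendritic cell markers, 4 rose (Batf3, Flt3, Itgax and Cd209a) and 0 fell in AhR-deficient cells, where 29.5% of all genes passed. In wild-type cells 2 rose (Batf3 and Flt3) and 2 fell (Tcf4 and Irf8), which is near the shares over all genes. Batf3, a transcription factor gene of conventional dendritic cells, rose by 6.54 ± 0.28 in AhR-deficient and 6.97 ± 0.26 in wild-type cells, and the cytokine receptor gene Flt3 by 1.28 ± 0.14 in AhR-deficient and 1.15 ± 0.12 in wild-type cells. The list summed to 631 to 692 CPM in AhR-deficient cells with IL-4, against 483 to 562 CPM in medium, and to 492 to 531 CPM in wild-type cells with IL-4, against 430 to 495 CPM in medium. Of 12 monocyte markers, 1 rose and 5 fell in AhR-deficient cells, and 1 rose and 6 fell in wild-type cells; they summed to 21630 to 25100 CPM in AhR-deficient cells with IL-4, against 24890 to 29750 CPM in medium, and to 20810 to 26650 CPM in wild-type cells with IL-4, against 24840 to 28470 CPM in medium. Lyz2, the monocyte marker with the highest level, fell (-0.83 ± 0.09 in AhR-deficient and -0.96 ± 0.08 in wild-type cells), while Chil3 rose (1.60 ± 0.22 and 1.79 ± 0.19). Cxcr2 was the 1 of 12 neutrophil markers that rose and Kit the 1 of 8 basophil or mast cell markers that fell, each in both genotypes. Both counts are below the shares over all genes. The part of these markers in the IL-4 responses was not tested.

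Ordered by level per kb, Apoe was the most abundant of the 10 RNAs in all 4 groups: 257 ± 42 CPM per kb in AhR-deficient cells with IL-4 (SD, n = 3), 180 ± 40 in wild-type cells with IL-4 (n = 4), 533 ± 95 in AhR-deficient cells in medium (n = 3) and 548 ± 94 in wild-type cells in medium (n = 4). Its range overlapped with that of no other gene of the set in any group. With IL-4, Lpl and Cd36 came next in both genotypes, at 72.9 and 69.6 CPM per kb in AhR-deficient cells and 64.5 and 45.0 CPM per kb in wild-type cells, and these neighbours overlapped. In medium, Msr1 came next in both genotypes, at 78.9 CPM per kb in AhR-deficient cells and 61.02 CPM per kb in wild-type cells, clear of the gene below it. At the low end, Abca1 and Nr1h3 stood last with IL-4 (2.93 and 4.88 CPM per kb in AhR-deficient cells, 2.98 and 2.74 in wild-type cells, where they overlapped). In medium the lowest were Abcg1 and Nr1h3, at 6.88 and 14.3 CPM per kb in AhR-deficient cells and at 10.3 and 7.84 in wild-type cells, where they overlapped. Among 14750 genes with a length, Abca1 stood at percentile 44.4 by CPM per kb in AhR-deficient cells with IL-4, against 80.9 in medium, and at 44.7 in wild-type cells with IL-4, against 82.3 in medium. Apoe stood at percentile 98.55 or above in every group.

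Between genotypes, few genes of the set passed the test. With IL-4, Nr1h3 and Msr1 were higher in AhR-deficient than in wild-type monocytes and none was lower, which is 2 of 10, against 1.62% of all genes (0.956% higher and 0.664% lower). Nr1h3 was 1.78-fold higher (log2 difference 0.83 ± 0.15, adjusted p = 0.0204) and Msr1 1.52-fold higher (0.60 ± 0.13, adjusted p = 0.0367). Ranges did not overlap between genotypes for 4 of the 10 genes with IL-4 (Nr1h3, Cd36, Msr1 and Plin2), against 18.2% of all genes. Cd36 (0.63 ± 0.28, adjusted p = 0.245), Plin2 (0.31 ± 0.10, adjusted p = 0.113) and Apoe (0.51 ± 0.18, adjusted p = 0.149) did not pass. Plin2 passed with DESeq2 (adjusted p = 0.0406) and with only the groups compared in the fit (adjusted p = 0.0390). The calls of Nr1h3 and Msr1 were lost when some single libraries were left out. The adjusted p of Nr1h3 was 0.0806 without AhR-deficient number 4, 0.0681 without AhR-deficient number 5, 0.0639 without wild-type number 1 and 0.0610 without wild-type number 2, with log2 differences of 0.80 to 0.87. For Msr1 it was 0.157 (0.54) without AhR-deficient number 4, 0.179 (0.48) without AhR-deficient number 5, 0.106 (0.57) without wild-type number 1, 0.122 (0.56) without wild-type number 2, 0.0501 (0.66) without wild-type number 7 and 0.284 (0.49) without numbers 1 and 2. Accordingly 0 genes passed without any 1 of AhR-deficient numbers 4 and 5 and wild-type numbers 1 and 2, while 1 passed without wild-type number 7 and 1 without numbers 1 and 2 together.

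In medium, Nr1h3 and Mylip were higher and Abcg1 was lower in AhR-deficient than in wild-type monocytes, which is 3 of 10, against 8.11% of all genes (4.16% higher and 3.95% lower). Nr1h3 was 1.82-fold higher (log2 difference 0.86 ± 0.14, adjusted p = 5.24e-03) and Mylip 1.22-fold higher (0.29 ± 0.08, adjusted p = 0.0372). Abcg1 differed by -0.59 ± 0.15 (adjusted p = 0.0319), although AhR-deficient number 6, at 65.8 CPM, overlapped with the wild-type libraries. Ranges did not overlap for 4 of the 10 genes (Nr1h2, Nr1h3, Mylip and Msr1), against 20% of all genes. Msr1 did not pass (0.37 ± 0.13, adjusted p = 0.0851) but passed with DESeq2 (adjusted p = 0.0448), and Lpl passed only without wild-type number 3 (1.002, adjusted p = 0.0192) and not with all libraries (0.59 ± 0.31, adjusted p = 0.249).

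These medium calls also depended on the libraries in the fit. The Nr1h3 call held without each single library (adjusted p at most 0.0337), and was lost without numbers 1 and 2 (0.66, adjusted p = 0.0581) and with only the groups compared in the fit (0.85, adjusted p = 0.0615). The Abcg1 call was lost without AhR-deficient number 4 (-0.45, adjusted p = 0.164), AhR-deficient number 5 (-0.51, adjusted p = 0.0860), wild-type number 1 (-0.52, adjusted p = 0.0726), wild-type number 2 (-0.54, adjusted p = 0.0909) and numbers 1 and 2 together (-0.41, adjusted p = 0.310). The Mylip call was lost without AhR-deficient numbers 4, 5 or 6 (adjusted p = 0.0850, 0.0729 and 0.114), wild-type numbers 1 or 2 (adjusted p = 0.0806 and 0.1002), numbers 1 and 2 together (0.18, adjusted p = 0.346) and with no filter on low counts (adjusted p = 0.0533). The count of genes that passed was 1 without AhR-deficient number 4 or 5 or wild-type number 1 or 2, and 0 without numbers 1 and 2 together or with only the groups compared in the fit. Neutrophil markers summed to 403 to 704 CPM in AhR-deficient cells with IL-4, against 578 to 1114 CPM in wild-type cells. In medium they summed to 452 to 823 CPM in AhR-deficient cells, against 510 to 1257 CPM in wild-type cells. All 12 were detected and 0 of 12 passed in either genotype comparison. Eosinophil markers summed to 66.1 to 124 CPM in AhR-deficient cells with IL-4, against 76.2 to 252 CPM in wild-type cells. In medium the eosinophil sums were 75.05 to 140 CPM in AhR-deficient cells, against 101 to 221 CPM in wild-type cells. The median log2 difference of the 8 eosinophil markers was -1.42 with IL-4 and -1.28 in medium, and 0 of 8 passed in either comparison.

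A few markers of other lists passed between genotypes. Over all genes 1.62% passed with IL-4 and 8.11% in medium, and the counts below are to be read beside these shares. In medium the dendritic cell and macrophage counts are close to that share. The dendritic cell list summed to 631 to 692 CPM in AhR-deficient cells with IL-4, against 492 to 531 CPM in wild-type cells, with no overlap, and to 483 to 562 CPM in AhR-deficient cells in medium, against 430 to 495 CPM in wild-type cells. Of its 11 tested markers, Clec9a (0.81 ± 0.10, adjusted p = 1.40e-03) and Irf8 (0.40 ± 0.09, adjusted p = 0.0474) were higher in AhR-deficient cells with IL-4. Clec9a (0.57 ± 0.10, adjusted p = 8.91e-03) was higher in medium, and 0 passed as lower. The median log2 difference of the 11 was 0.40 with IL-4 and 0.09 in medium. Those that did not pass went both ways with IL-4, such as Siglech (-0.76 ± 0.37) and Ly6d (-0.55 ± 0.43) against Bst2 (0.67 ± 0.27) and Zbtb46 (0.52 ± 0.32). Of 12 monocyte markers, Fcgr1 was higher (0.97 ± 0.13 with IL-4 and 0.60 ± 0.12 in medium) and Ccr2 lower (-1.75 ± 0.31 with IL-4 and -1.75 ± 0.31 in medium) in AhR-deficient cells. The ranges of the sum of all 12, given above, overlapped between genotypes under both treatments. Most of that sum was Lyz2 and Chil3, with means of 9373 and 7595 CPM in AhR-deficient and 8615 and 7057 CPM in wild-type cells with IL-4. It therefore shows little of Ccr2, at 508 CPM in AhR-deficient and 1714 CPM in wild-type cells with IL-4. Adgre1 was the 1 of 9 tested macrophage markers that was lower in medium (-0.47 ± 0.12, adjusted p = 0.0309), and Cd4 the 1 of 6 tested T or NK cell markers that was lower with IL-4 (-2.13 ± 0.49, adjusted p = 0.0479). The part of all these markers, neutrophil and eosinophil markers included, in the genotype differences was not tested.

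**Figure D4:**
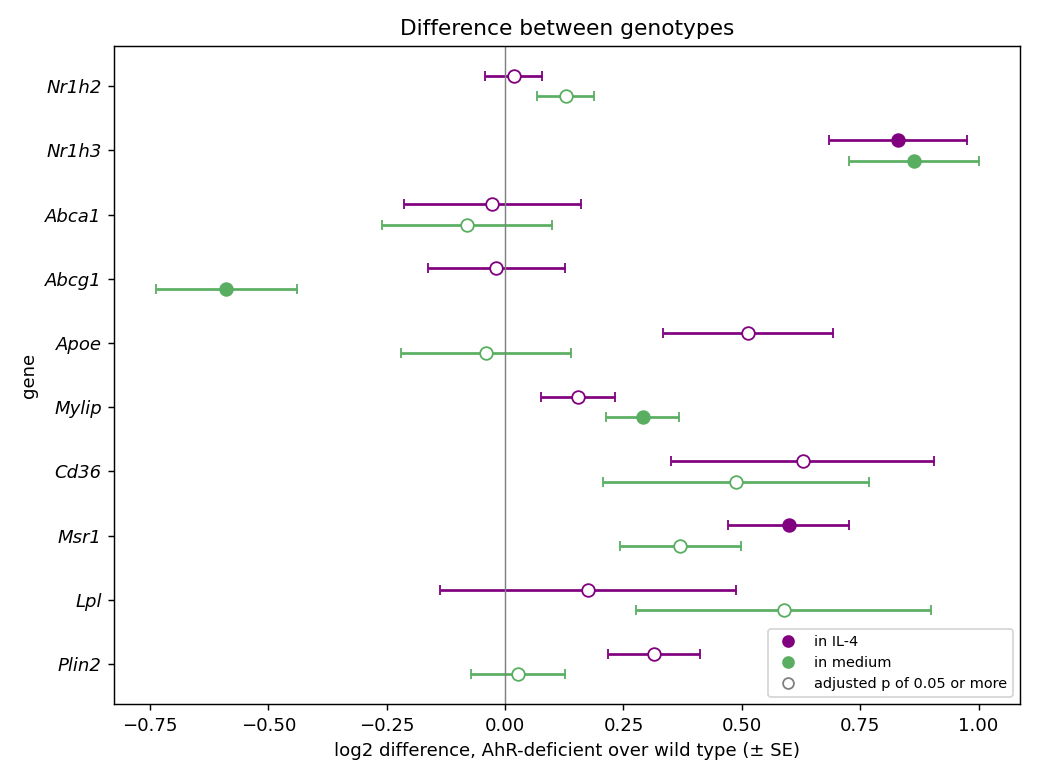
Log2 difference of AhR-deficient over wild-type monocytes ± SE for the 10 genes, with IL-4 (purple) and in medium (green); open points did not pass (adjusted p of 0.05 or more). Nr1h3 is filled under both treatments, at 0.83 and 0.86, and Abcg1 in medium, at -0.59, is the only filled point below 0.

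No gene of the set had an IL-4 response that differed between genotypes at an adjusted p under 0.05. By edgeR 0% of all 14754 genes passed, and 558 had an unadjusted p under 0.05, including 2 of the 10, Abcg1 and Apoe. DESeq2 called 3 of all genes and 0 of the 10. For Abcg1 the log2 fold change with IL-4 was larger by 0.57 ± 0.21 in AhR-deficient than in wild-type cells (unadjusted p = 0.0158, adjusted p = 0.9999), with a 95% interval from 0.13 to 1.01. With the library number as a block it was 0.59 ± 0.15 by edgeR (adjusted p = 0.347), and DESeq2 with the block called it (0.61, adjusted p = 5.83e-03). For Apoe the difference was 0.55 ± 0.25 (unadjusted p = 0.0477), with an interval from 0.0066 to 1.10. The narrowest interval was that of Nr1h2, from -0.29 to 0.07, and the widest that of Lpl, from -1.37 to 0.54. On simulated counts, the same test recovered 23% of 200 genes with a difference of 0.5 (log2), so such a difference would often be missed. It recovered 87.5% of 200 genes with a difference of 1. The simulated libraries were not paired, and the 200 changed genes had a mean log2 CPM over 1. The adjustment is stricter where fewer genes change, and 0 genes passed in the data, so these shares may be too high here.

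A wider list of 103 genes of sterol and lipid handling, also chosen with earlier results of these data known, was set beside the 10. Of these, 82 were abundant enough to be tested. With IL-4, 22 rose, 18 fell and 42 did not pass in AhR-deficient cells, and 23 rose, 24 fell and 35 did not pass in wild-type cells. Over all genes tested, 15.4% rose and 14.2% fell in AhR-deficient cells, and 19.4% rose and 16.5% fell in wild-type cells; the counts of the role groups below are likewise to be read beside these shares. The median log2 fold change of the 82 genes was 0.01 in each genotype, beside -0.01 and 0.01 over all genes. With the library number as a fixed block, 27 rose and 26 fell in AhR-deficient cells, and 26 rose and 26 fell in wild-type cells. Over all 14754 genes, 5344 passed with the block in AhR-deficient and 6297 in wild-type cells, against 4359 and 5296 without it. The role group counts below are without the block.

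The genes listed here as other LXR targets were split, and whether LXRs regulate each of them in monocytes was not tested. Of 14 tested, 6 rose and 4 fell in AhR-deficient cells, and 7 rose and 6 fell in wild-type cells. Mertk, a receptor tyrosine kinase for the uptake of dying cells, averaged 9.52 ± 0.33 CPM in AhR-deficient cells with IL-4, against 0.407 ± 0.056 CPM in medium (SD, n = 3 each), a log2 fold change of 4.54 ± 0.23 (adjusted p = 4.00e-09). In wild-type cells it averaged 9.20 ± 1.30 CPM with IL-4, against 0.428 ± 0.162 CPM in medium (SD, n = 4 each), a log2 fold change of 4.40 ± 0.20 (adjusted p = 6.28e-10). Mertk also stands on the macrophage marker list above. Pparg, the nuclear receptor PPAR-gamma, rose by 1.55 ± 0.15 in AhR-deficient cells (adjusted p = 3.72e-06) and 1.61 ± 0.13 in wild-type cells (adjusted p = 4.32e-07). Scd2, a fatty acid desaturase gene, rose in both (0.92 ± 0.18 in AhR-deficient and 1.08 ± 0.15 in wild-type cells), and Apoc1, an apolipoprotein gene, fell (-0.88 ± 0.22 and -1.52 ± 0.20).

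Among 11 tested LXR partners and co-regulators, 4 rose and 0 fell in AhR-deficient cells, and 4 rose and 1 fell in wild-type cells. The deacetylase gene Sirt1 rose by 0.44 ± 0.06 in AhR-deficient and 0.26 ± 0.06 in wild-type cells, and the arginine methyltransferase gene Prmt1 by 0.22 ± 0.05 in AhR-deficient and 0.21 ± 0.04 in wild-type cells. The coactivator gene Ncoa5 rose in wild-type cells (0.34 ± 0.08, adjusted p = 3.30e-03), and in AhR-deficient cells had 0.20 ± 0.09 (adjusted p = 0.110, and 0.0199 with the library number as a block).

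Of 20 tested genes of cholesterol handling and export, 2 rose and 4 fell in AhR-deficient cells, and 2 rose and 5 fell in wild-type cells. Npc1, which lets cholesterol out of the lysosome, rose by 0.76 ± 0.07 in AhR-deficient and 0.46 ± 0.06 in wild-type cells (adjusted p = 1.54e-06 and 3.22e-05). Its lysosomal partner Npc2 fell in wild-type cells (-0.29 ± 0.07, adjusted p = 3.18e-03) and had -0.18 ± 0.08 in AhR-deficient cells (adjusted p = 0.0879, and 7.92e-03 with the block). Lrp1, a large receptor that takes up ApoE-bearing particles, fell in both (-0.41 ± 0.08 in AhR-deficient and -0.62 ± 0.07 in wild-type cells). Cyp27a1, a mitochondrial sterol hydroxylase, fell too (-0.48 ± 0.10 in AhR-deficient and -0.66 ± 0.09 in wild-type cells).

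Of 18 tested scavenger receptor and lipid uptake genes, 4 rose and 6 fell in AhR-deficient cells, and 5 rose and 6 fell in wild-type cells. Cxcl16, which also acts as a scavenger receptor for oxidised LDL, fell in AhR-deficient (-2.55 ± 0.38) and wild-type cells (-2.78 ± 0.34, adjusted p = 1.57e-04 and 1.71e-05). The fatty acid binding protein gene Fabp5 rose in AhR-deficient (1.53 ± 0.11) and wild-type cells (2.14 ± 0.10, adjusted p = 1.47e-07 and 7.75e-10). Lipg, the endothelial lipase gene, rose at very low levels (1.19 ± 0.42 CPM in AhR-deficient cells with IL-4, against 0.0816 ± 0.0736 CPM in medium, SD, n = 3 each), and the fatty acid transporter gene Slc27a4 fell (-0.82 ± 0.11 in AhR-deficient and -0.69 ± 0.09 in wild-type cells). Among 19 tested droplet and triglyceride genes, 6 rose and 4 fell in AhR-deficient cells, and 5 rose and 6 fell in wild-type cells. Enzyme genes of triglyceride synthesis were among those that fell: Lpin2 (-1.07 ± 0.08 in AhR-deficient and -0.99 ± 0.07 in wild-type cells), Dgat2 (-1.32 ± 0.13 in AhR-deficient and -0.95 ± 0.11 in wild-type cells) and Gpat3 (-1.005 ± 0.16 in AhR-deficient and -1.38 ± 0.14 in wild-type cells). Lipe, hormone-sensitive lipase, rose slightly (0.14 ± 0.04 in AhR-deficient and 0.25 ± 0.04 in wild-type cells).

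**Figure D5:**
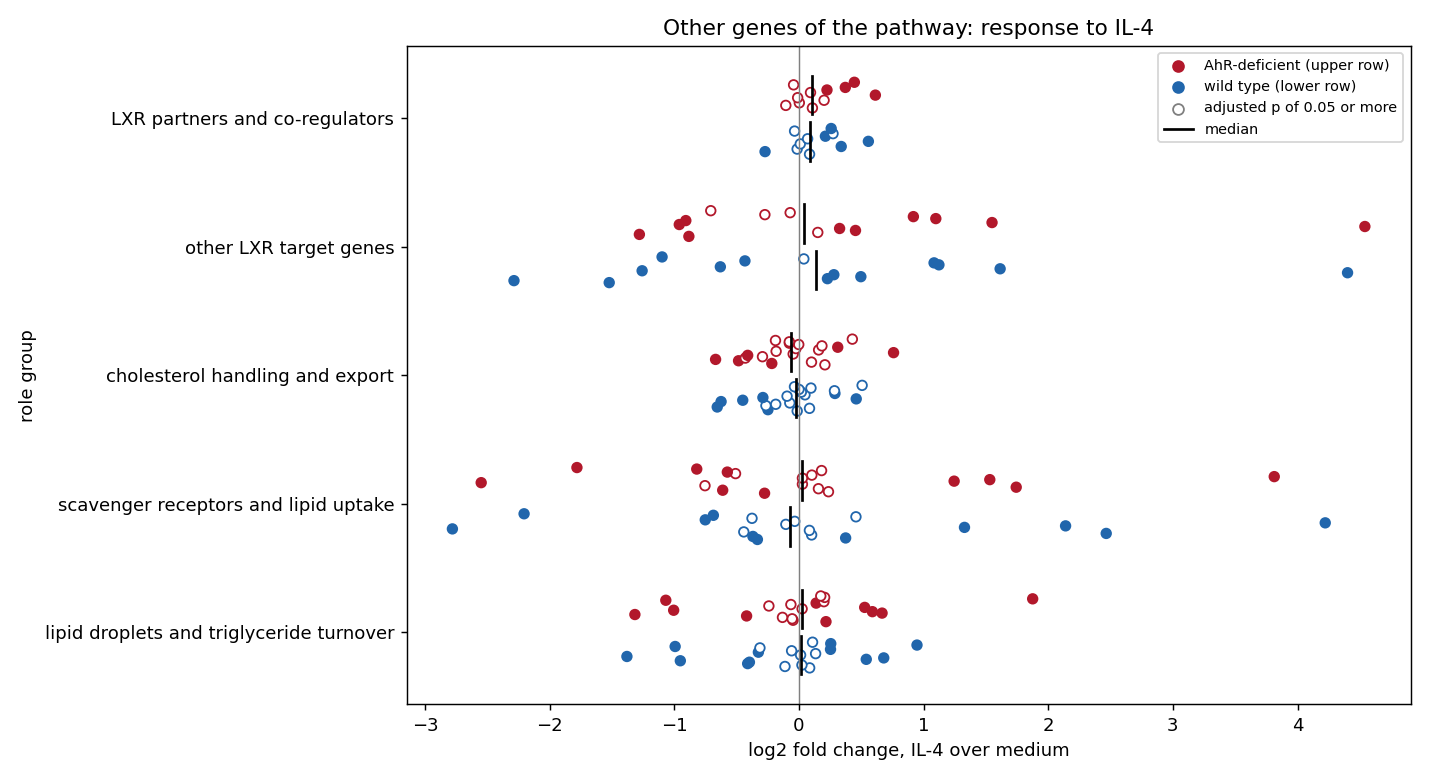
Log2 fold change with IL-4 over medium for the 82 tested genes of the wider list, 1 point per gene, in 5 role groups, with AhR-deficient monocytes in the upper row and wild-type monocytes in the lower row of each group; open points did not pass and black lines are medians. Filled points lie on both sides of 0 in each role group of wild-type cells, and Mertk is the rightmost point of the target genes, at 4.54 and 4.40.

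Between genotypes, 4 of the 82 passed with IL-4 (3 higher and 1 lower in AhR-deficient cells), against 1.62% of all genes, and 9 of 82 in medium (4 higher and 5 lower), against 8.11% of all genes. The medium count is close to the share over all genes. By limma-voom with the library number as a random block the medium count was 15, and without numbers 1 and 2 both counts were 0. With IL-4 the count was 0 without AhR-deficient number 4 or 5 or wild-type number 1 or 2, and 2 without AhR-deficient number 6 or wild-type number 3. In medium it was 3 without AhR-deficient number 4, 5 without wild-type number 1, 4 without wild-type number 2 and 19 without wild-type number 3. Of the genes named here, Scd2 was lower in AhR-deficient cells with IL-4 (-0.94 ± 0.17, adjusted p = 0.0204) and in medium (-0.78 ± 0.17, adjusted p = 0.0190). Fabp5 (0.77 ± 0.10, adjusted p = 1.90e-03) and Dgat2 (0.71 ± 0.12, adjusted p = 6.22e-03) were higher in AhR-deficient cells in medium, and Lrp1 (-0.48 ± 0.08, adjusted p = 5.70e-03) and Sirt1 (-0.26 ± 0.06, adjusted p = 0.0240) were lower there. Gpat3 was higher in AhR-deficient cells with IL-4 (0.76 ± 0.15, adjusted p = 0.0306). None of the 82 differed between genotypes in its IL-4 response by edgeR (0 at an adjusted p under 0.05, 6 at an unadjusted p under 0.05), and 2 did by DESeq2 with the block.

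The genes most like each strongly responding member were sought over the 14 libraries, as those with the smallest root-mean-square difference of centred log2 CPM among 10009 genes. Nr1h3 was most like Abi3 (0.16), Hmox1 (0.18) and Sema4d (0.19). Abca1 was most like Pid1 (0.21), Arhgef3 (0.31) and Naip1 (0.32), against a median of 1.37 over all genes compared. Abcg1 was most like Pfkfb4, Dusp7 and Fam83f (0.18 to 0.19), and Apoe most like Retreg1 (0.20), Hopx (0.22) and Il17ra (0.24). Cd36 was most like Fabp4 (0.20), the fatty acid binding protein of macrophages and fat cells, then Itgax and Rnf19b (0.28 each), and Msr1 most like Rab32, Rab7b and Klra2 (0.17 to 0.19). Taking the 7 differences between same-numbered libraries in place of the 14 levels, Pid1 and Arhgef3 stayed among the 3 nearest to Abca1, Fam83f to Abcg1, Retreg1 to Apoe and Rab7b to Msr1, while the 3 nearest to Nr1h3 and to Cd36 were all others. Libraries of a group share genotype and treatment, so these distances are a description.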

How the data were processed

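RNA from monocytes of leg bone marrow, isolated with a monocyte kit (90-95% pure per the labels), was made into stranded mRNA libraries and sequenced as paired reads. The authors deposited raw counts per gene for 14 libraries; FastQC, STAR and mm10 are named in the submitters' processing notes, while how reads were counted, with which strand setting and against which annotation, is not given in the sources used here. The labels do not say if replicates are separate animals or pools, so p-values measure the spread between these libraries. Gene IDs were matched to GENCODE M21 (GRCm38; 55094 of 55487 with version, 55394 without), which also gave exon lengths; 27900 genes had 0 counts in all libraries.

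Counts were tested with edgeR 4.0.16 (R 4.3.3): filterByExpr (14754 genes, at least 99.9% of each library's counts), TMM scaling, 1 mean per group over all 14 libraries (10 residual degrees of freedom), quasi-likelihood F-tests and Benjamini-Hochberg adjustment over all genes kept. The SE is the absolute log2 fold change over the square root of F, and 95% intervals use the degrees of freedom of the test (residual plus prior, 13.67 for the 10 genes). A log2 fold change is IL-4 over medium or AhR-deficient over wild type. The members, the wider list, the markers and the tests were chosen with earlier results of these data known. Named genes were all 10 members, up to 4 genes per role group of the wider list with the smallest adjusted p in either IL-4 response, and for each member with an absolute log2 fold change of at least 1 the 3 most alike genes (mean log2 CPM of at least 1, pseudocount 0.5 CPM). A gene that this rule names is not reported here.

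Promoter windows of the members came from RefSeq. Library numbers pair the treatments: deviations from group means of same-numbered libraries correlated at 0.33 to 0.68 in 7 of 7 pairs over 10660 genes, each above 0.1. Numbers come from the titles. Alternatives were DESeq2 1.42.0, limma-voom (limma 3.58.1), other scalings and filters, the number as a fixed or random block, only the groups compared, and leaving out each library; leaving out numbers 1 and 2 was added after seeing the data. In simulated counts of unpaired libraries, 200 genes with a mean log2 CPM over 1 were changed. For the IL-4 response of AhR-deficient cells the test recovered 56.5% of them when changed by 0.5 and 94.5% when changed by 1 (log2). For that of wild-type cells it recovered 69.5% and 93%.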

Additional observations from a re-analysis of the deposited data

Results flagged for a closer look

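Among 20 groups of 4 wild-type libraries (10 genes, with IL-4 and in medium), 1 held a library far from the others, which is about what chance gives at 1 in 20. Mylip in wild-type monocytes with IL-4 had 34.0 CPM in number 7, against 31.4 CPM in the next library and 30.9 CPM in the lowest. The gap to the next library was 0.864 of the group's range, above the critical value of 0.829 for 4 libraries. The call of Mylip as lower with IL-4 held without each single library.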

How the results depend on the processing

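The IL-4 responses kept their calls under the alternatives run, except those of Lpl in both genotypes. Of the 10 genes, 8 passed in AhR-deficient cells in each of 6 fits without 1 library, and 8 to 9 of 10 in wild-type cells in 8 such fits. With the library number as a fixed block 9 passed in each genotype; Lpl in AhR-deficient cells was the call it added, and the block changed no other call of the 10 genes by edgeR. Lpl in AhR-deficient cells also passed with only the groups compared in the fit (adjusted p = 8.46e-03) and by DESeq2 with the block (adjusted p = 0.0298). The main fit does not use the pairing, so its SEs for IL-4 hold the spread between numbers. For Cd36 the SE was 0.30 in AhR-deficient and 0.26 in wild-type cells, against 0.12 and 0.11 with the block. For Nr1h2 it hardly changed (0.065 and 0.056, against 0.066 and 0.057).

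The genotype counts were not stable, and the cause was not tested. Among the 10 genes, leaving out 1 library gave 0 to 2 with IL-4 and 1 to 4 in medium; without numbers 1 and 2 the counts were 1 with IL-4 and 0 in medium, and with only the groups compared 0 in medium. In the wider list, leaving out 1 library gave 0 to 3 with IL-4 and 3 to 19 in medium. With IL-4 that list had 8 calls by DESeq2, 7 with only the groups compared and 0 without numbers 1 and 2; in medium it had 14 with a filter of 1 CPM in 3 libraries, 17 by DESeq2, 3 with only the groups compared, 15 with the number as a random replicate block and 0 without numbers 1 and 2. Over all genes, leaving out 1 library gave 24 to 315 with IL-4 (239 with all libraries) and 95 to 1716 in medium (1197 with all libraries). With IL-4 the count over all genes was 762 by DESeq2, 361 with no filter, 523 with only the groups compared, 420 with the random block and 25 without numbers 1 and 2; in medium it was 1874 by DESeq2, 59 with only the groups compared and 30 without numbers 1 and 2. For the difference in response, DESeq2 called 3 of all genes, and DESeq2 with the replicate block called 53 of all genes, 2 of the wider list and 1 of the 10 genes, against 0 by edgeR with or without the block.

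Changes of sign were confined, in the alternatives run, to results that did not pass. Nr1h2 in wild-type cells had -0.0047 with DESeq2 size factors in edgeR, -0.0047 by DESeq2, -0.0059 with no filter, -0.0011 with 1 CPM in 3 libraries and -0.0057 by DESeq2 with the block, and -0.020 to 0.025 without 1 library. Without 1 library, the genotype difference with IL-4 ran from -0.036 to 0.092 for Nr1h2, -0.085 to 0.097 for Abca1 and -0.095 to 0.042 for Abcg1, and in medium from -0.23 to 0.13 for Abca1, -0.13 to 0.10 for Apoe and -0.065 to 0.15 for Plin2. The difference in response ran from -0.12 to 0.10 for Nr1h3 (0.15 without numbers 1 and 2), -0.15 to 0.20 for Abca1 and -0.10 to 0.36 for Cd36. The fewest counts behind any value of the 10 genes were 250, for Nr1h3 in 1 wild-type library with IL-4.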
